A study of Danio rerio with 6 samples.

Results

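The genes described here encode the translation initiation and elongation factors of the zebrafish, the proteins that start a polypeptide at an mRNA's start codon and then extend it. They were chosen by symbol: every gene on the array whose symbol begins with eif and a number, with eef1, with eef2 or with etf1. That gave 65 genes read by 84 probe sets, of 8793 named genes and 15502 non-control probe sets, and 62 of the 65 were bright enough to be tested. By role they are 10 elongation factor genes, 44 initiation factor genes, 2 genes of eIF5A, 1 release factor gene (etf1b) and 8 genes for regulators, which modify these factors or bind them, or whose symbols merely share the prefix.

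Embryos mutant for hand2 through the hanS6 allele were set against phenotypically wild-type siblings from crosses of heterozygotes. Both were whole zebrafish embryos at 19 hours post fertilization, raised at 28.5 °C, and both carried a Tg(myl7:egfp) reporter, driven by a heart muscle promoter, by which the mutants were told apart. Each genotype had 3 arrays, numbered 1 to 3, each of RNA pooled from 10 to 25 embryos, and the embryos came from 3 independent crosses. Sorting on a recessive phenotype leaves heterozygotes among the siblings. hand2 encodes a transcription factor of heart, pharyngeal arch and fin development.

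Translation starts when eIF2 brings the initiator tRNA to the small ribosomal subunit, eIF3 and eIF1A hold that subunit ready, and the cap-binding eIF4 proteins bring in the mRNA. eEF1A then delivers each aminoacyl-tRNA, the eEF1B complex recharges eEF1A with GTP, and eEF2 moves the ribosome by a codon. In vertebrates many mRNAs of elongation factors and ribosomal proteins begin with a terminal oligopyrimidine tract and are among the most abundant in the cell, and whole embryos in which cells divide and grow use them throughout.

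The values are linear MAS5 signals, which the authors had scaled so that the mean after trimming 2% from each end was about 500.1 on each array. Median signals were 161.3 to 175.7 on the mutant arrays and 150.6 to 165.4 on the sibling arrays, and pairwise correlations of log2 signal between arrays ran over 0.964 to 0.987. The 99th percentile of signal was lowest on mutant array 2 at 9493, with 10462 and 11253 on the other mutant arrays, and it was highest on sibling array 2 at 12859, with 10510 and 12064 on the other sibling arrays. The log2 ratio of the 3′ to the 5′ control probe sets of gapdh was 1.73 to 2.08 on mutant arrays and 1.77 to 2.02 on sibling arrays. That of actc1b was 2.18, 3.91 and 3.41 on the mutant arrays and 3.31, 3.77 and 3.69 on the sibling arrays, lowest on mutant array 1. Of 26 markers of embryonic tissues, 23 were measured and 16 of these lay above the control level on all 6 arrays. hand2 had signals of 52.8, 50.9 and 45.1 in mutants, against 348.9, 447.7 and 292.2 in siblings, low in every array labelled mutant. All 3 mutant values were under the highest Tag control signal on their own array (Tag probe sets are controls that stand for background), so hand2 was at least 4.35-fold lower (limma, adjusted p = 0.0051). Without sibling array 1 or 2 its adjusted p was 0.060 or 0.054.

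No translation factor gene passed the test across the array. The test was limma on log2(signal + 16), with p-values adjusted over all 11626 tested probe sets and a threshold of 0.05. It called 0 of 62 factor genes and 0.0086% of all tested probe sets, which is hand2 alone. The smallest adjusted p among the factors was 0.942 (limma), and 0.648 once the replicate number was added as a block. Before adjustment, 2 factor genes had a p under 0.05, both higher in mutants (eif4enif1 and eif4g3b), against 3.03% of all probe sets. With the block there were 5, of which 2 were lower (eif3f and eif3m) and 3 higher (eif4enif1, eef2k and eif4g3b), against 7.41% of all probe sets. After quantile normalization eif4enif1 alone had a p under 0.05, against 2.8% of all, and with the block 6 genes did, 3 lower (eif2b2, eif3f and eif3m) and 3 higher (eif4enif1, eef2k and eif4a1a), against 6.92%. What follows therefore describes fitted differences of mutant minus sibling on the log2(signal + 16) scale, with standard errors, for genes that did not pass. In whole embryos, fewer cells of a type and less RNA per cell cannot be told apart.

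As a group the factors lay slightly below 0. The fitted difference was below 0 for 39 of 62 genes and above 0 for 23, while 46.2% of all tested probe sets lay below 0. The median over the factors was -0.08, against 0.02 over all tested probe sets, and it was -0.07, -0.18 and -0.06 at replicate numbers 1, 2 and 3. After quantile normalization, which gives all 6 arrays the same distribution of signal, 35 genes lay below 0 against 52.3% of all probe sets, and the median was -0.01, the same as over all probe sets. With the arrays set to a common median instead, 45 lay below 0 against 60.7% of all, and with cyclic loess 33 against 50.6%. No share of all probe sets given here is matched for brightness, and 33 of the 62 genes lay in the brightest of 10 equal bands. The median difference of the 200 other tested probe sets nearest each factor in mean signal was also taken. As deposited it had a median of -0.04, and 34 of the 62 factors lay below theirs. Of the 62 genes, 23 were lower in mutants at all 3 replicate numbers as deposited, or 37.1%, against 14.7% of all tested probe sets. Higher at all 3 were 7, against 16.2%. After quantile normalization 14 were lower at all 3 numbers, or 22.6%, against 16.7% of all, and 9 were higher at all 3, against 12.6%. In only 1 gene did all mutant arrays lie below all sibling arrays (eif3c), against 3.04% of all probe sets, and in only 1 did they lie above (eif4enif1), against 3.71%.

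The genes of elongation were read by some of the brightest and some of the dimmest probe sets of the group. Brightness here belongs to the probe set and does not rank transcripts by abundance. eef1a1l1 on chromosome 19, the gene of the abundant embryonic eEF1A, which carries aminoacyl-tRNA to the ribosome, had signals of 20204, 17471 and 23799 in mutants, against 21178, 29377 and 29048 in siblings. The genotypes overlapped, since mutant array 3 was brighter than sibling array 1, but the mutant array was the lower one at each replicate number and the gap was widest at number 2. Its means were 20491 ± 3174 in mutants and 26534 ± 4641 in siblings (SD, n = 3 each), a fitted difference of -0.37 ± 0.18 (SE) as deposited and of 0.01 ± 0.06 after quantile normalization. Among the probe sets of its own array it ranked 15, 12 and 24 in mutants and 13, 21 and 18 in siblings, so its place in the order differed little while its signal did.

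eEF2, which moves the ribosome to the next codon, showed the same pattern in its bright gene. eef2b on chromosome 2 had 19802, 17047 and 24359 in mutants, against 21196, 30957 and 29430 in siblings. Again each mutant array was below the sibling array of its number, with the widest gap at number 2, and again mutant array 3 lay above sibling array 1. The fitted difference was -0.41 ± 0.19, with a 95% interval of -0.84 to 0.02, and it was -0.04 ± 0.05 after quantile normalization. Its ranks were 17, 16 and 18 in mutants and 12, 12 and 16 in siblings.

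The 3 measured genes of eEF1B, the complex that exchanges GDP for GTP on eEF1A, all had fitted differences below 0 as deposited. eef1g, for the scaffold subunit, had 13852, 12771 and 17659 in mutants, against 14593, 19170 and 22054 in siblings, and differed by -0.33 ± 0.19. eef1b2, for an exchange subunit, had 14032, 12806 and 17377 in mutants, against 15206, 17957 and 19619 in siblings, and differed by -0.26 ± 0.16. In both the genotypes overlapped by mutant array 3 alone, which lay above sibling array 1. After quantile normalization they differed by -0.02 and 0.01, so eef1b2 turned sign. eef1db, for the other exchange subunit, has a dimmer probe set, at 3803, 3317 and 4853 in mutants, against 4579, 3599 and 5964 in siblings. Its widest gap was at number 3 and its narrowest at number 2, unlike the brighter genes. It differed by -0.23 ± 0.21 as deposited and by -0.16 ± 0.17 after quantile normalization.

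**Figure D1:**
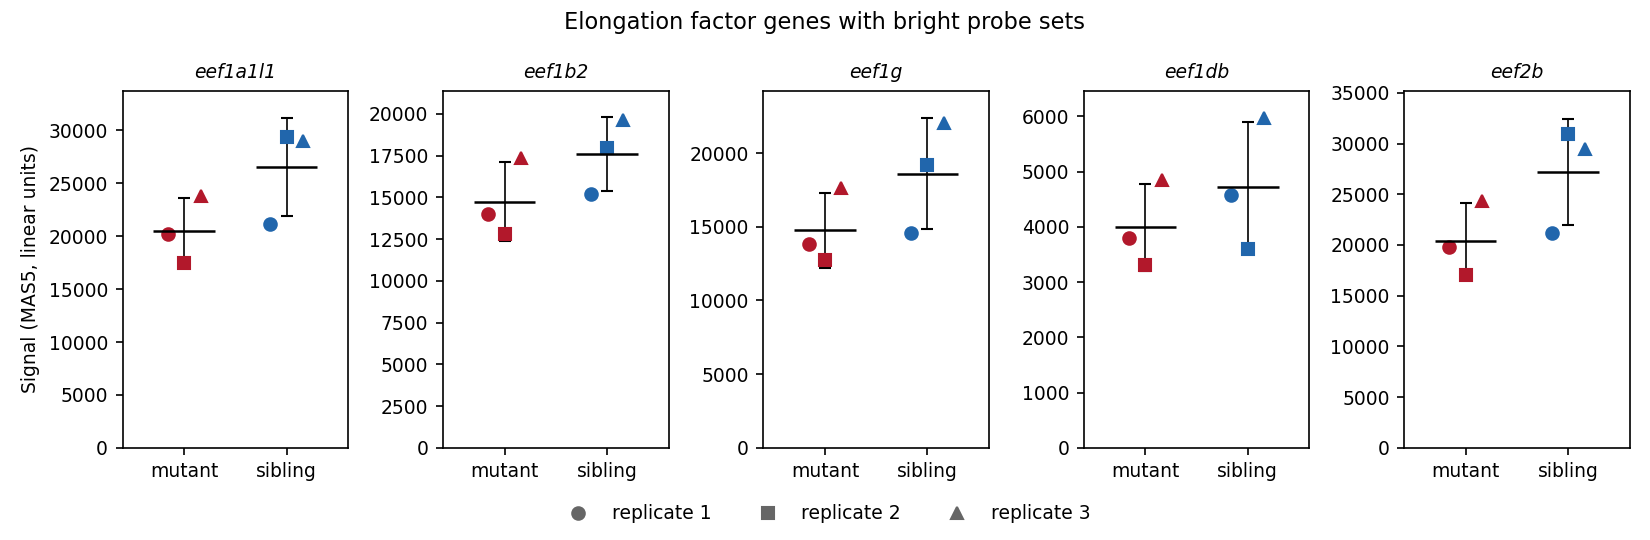
Linear MAS5 signal of the 5 elongation factor genes that lay above the Tag controls on all arrays, mutant arrays in red on the left of each panel and sibling arrays in blue on the right, with marker shapes for the replicate number. Horizontal lines are means and vertical bars SDs (n = 3 each); in each panel the mutant array lies below the sibling array of the same number while the genotypes overlap.

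The other elongation factor genes were dim or unsteady and gave no comparable reading. eef1a1l3, an eEF1A paralog, had 88.1, 70.3 and 128.8 in mutants, against 90.3, 103.9 and 76.2 in siblings, and differed by 0.05 ± 0.24. eef2l2, whose symbol marks it as an eEF2-like gene, had 66.0, 74.9 and 42.1 in mutants, against 66.4, 33.1 and 30.0 in siblings, and differed by 0.41 ± 0.28. Of these arrays, 1 mutant and 1 sibling array for eef1a1l3, and 1 mutant and 2 sibling arrays for eef2l2, lay at or below the Tag controls. eef1a1a and eef1a1b, the eEF1A paralogs with signals of 5.78 to 52.2 in mutants and 10.2 to 58.9 in siblings, were at background on all 6 arrays and were not tested.

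eef2a.1, an eEF2 paralog on chromosome 22, stood apart from every other factor in how it varied. Its signals were 302.9, 0.87 and 104.1 in mutants, against 268.7, 2.02 and 73.4 in siblings. The arrays of number 1 were high, those of number 3 lower and those of number 2 at background in both genotypes, so the value followed the replicate number and not the genotype. The sibling arrays alone ran from background to 268.7, so no fold is given for their span. The fitted difference of 0.16 had a standard error of 1.11, or 0.198 with the replicate number as a block (unadjusted p = 0.429 in limma, adjusted p = 0.830). The cause of this split between numbers was not tested.

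**Figure D2:**
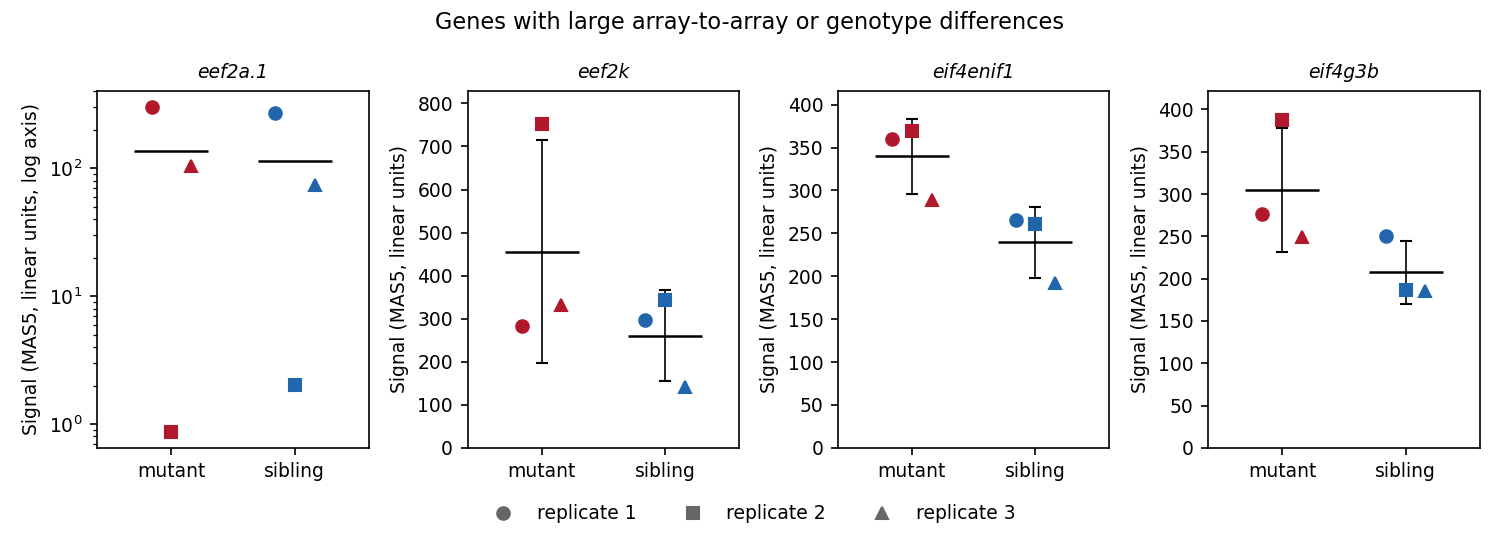
Linear MAS5 signal of eef2a.1 (log axis, horizontal lines at the means) and of eef2k, eif4enif1 and eif4g3b (axes from 0, with means and SDs, n = 3 each), mutant arrays in red on the left and sibling arrays in blue on the right. For eef2a.1 the arrays of one number lie together in both genotypes; for eif4enif1 all 3 mutant arrays, 289.3 to 369.4, lie above the sibling arrays, 191.8 to 265.8.

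The bright elongation factors were then set against genes of like brightness. The 5 genes above the Tag controls on all arrays (eef1a1l1, eef1b2, eef1g, eef1db and eef2b) all had differences below 0 as deposited, with a median of -0.33, and all were lower at each of the 3 numbers. A running median was taken at each gene over the 200 tested probe sets outside the factors that were nearest to it in mean signal. Bright neighbours include cytosolic ribosomal protein genes, of which 75 had a median signal of 19089 and all lay below 0 as deposited. The running median had a median of -0.28 at the 5 genes, and each gene lay within 1 standard error of its own. eef1a1l1, eef1b2, eef1g and eef2b shared one value of it, so theirs are not separate comparisons. With 400 neighbours that value was -0.19, and eef2b lay more than 1 standard error below it. The 200 neighbours gave -0.08, -0.62 and -0.14 at numbers 1, 2 and 3, beside -0.10, -0.59 and -0.29 for the 5 genes. Among the 100 brightest tested probe sets, which include 4 of the 5, the median difference was -0.34 as deposited and 0.00 after quantile normalization. By number it was -0.08, -0.75 and -0.18 as deposited. Quantile normalization gives all arrays the same brightest values, so probe sets that stay near the top of every array come out near 0. With it, a shift of scaling and a shift in the embryos shared by the brightest genes cannot be told apart. After quantile normalization 3 of the 5 lay below 0, with a median of -0.02, and 2 (eef2b and eef1db) were lower at all 3 numbers. With cyclic loess the 75 cytosolic ribosomal protein genes had a median of -0.08, with 67 below 0. All 5 elongation genes lay below 0 there, with a median of -0.10. A common median moves every fitted difference down by one amount, so all 5 had to stay below 0, at a median of -0.41. Over all 8 tested elongation genes the median was -0.24 as deposited, -0.07, -0.48 and -0.22 at numbers 1, 2 and 3, and 0.0004 after quantile normalization. It was -0.11 without sibling array 3, -0.13 without mutant array 2 and -0.38 without mutant array 3.

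**Figure D3:**
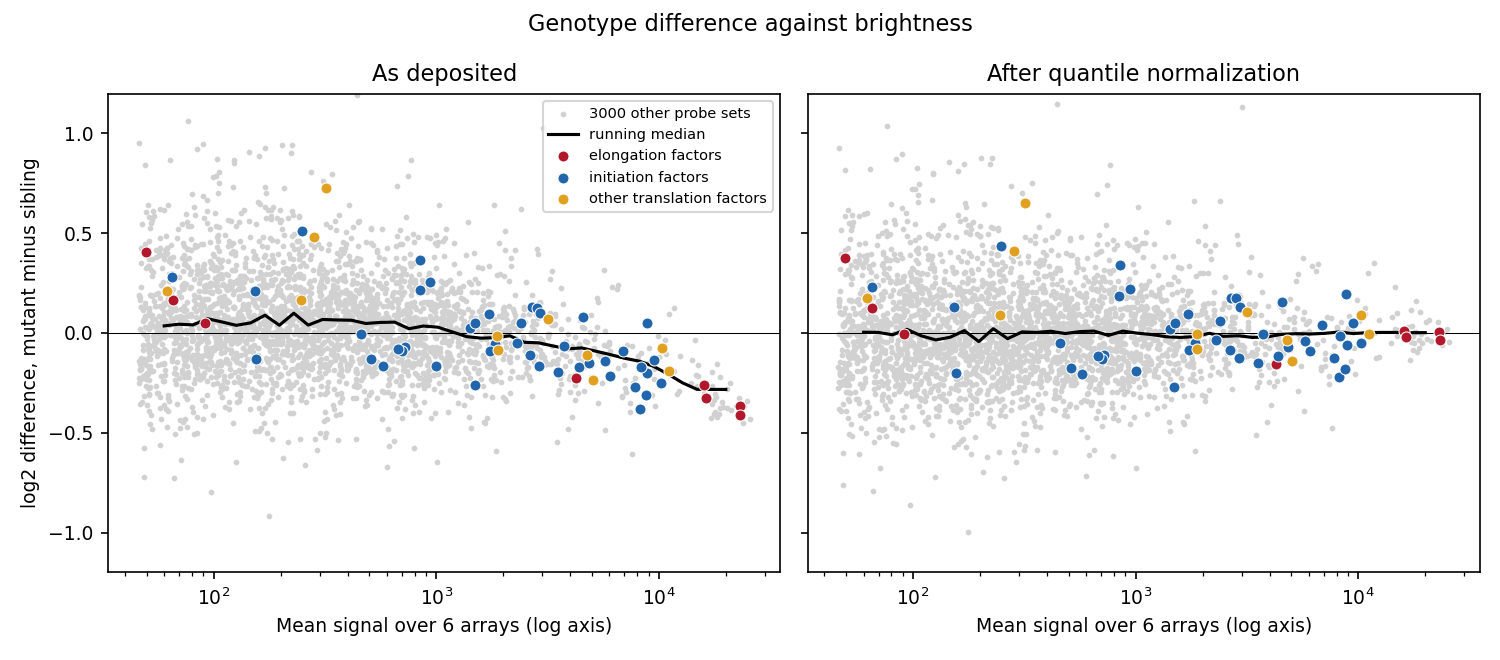
Fitted log2 difference, mutant minus sibling, against mean signal over the 6 arrays (log axis), as deposited on the left and after quantile normalization on the right, for the 62 tested factor genes in colour and for 3000 other tested probe sets drawn at random in grey; grey points beyond 1.2 in either direction are not shown. The black running median bends down to about -0.28 at the bright end as deposited and stays near 0 after quantile normalization, and eef1a1l1, eef1b2, eef1g and eef2b lie at -0.13 to 0.02 from it as deposited and at -0.04 to 0.01 after quantile normalization. eef1db lies at -0.15 from it in both panels. Quantile normalization itself holds the running median near 0 at the bright end.

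Initiation factor genes had a median signal of 2403, against 16374.5 for the 5 bright elongation genes. The elongation genes eef1a1l3, eef2a.1 and eef2l2 were dimmer still. The median difference of the initiation genes lay nearer to 0 than that of all tested elongation genes. Of 43 tested, 28 had a difference below 0 and 15 above as deposited, with a median of -0.09, against a running median of -0.04 at their signals. By number the median was -0.06, -0.17 and -0.08. After quantile normalization it was -0.05, with 26 below 0, and with a common median it was -0.17, with 32 below 0. The 11 initiation genes with a mean signal over 5000 had a median of -0.20, with 10 below 0 and a running median of -0.15 at their signals. The 32 of 5000 or under had a median of -0.05, with 18 below 0 and a running median of -0.02. After quantile normalization the bright and the dimmer initiation genes had medians of -0.05 and -0.04. The median of elongation genes minus that of initiation genes was -0.15 as deposited, and -0.01, -0.31 and -0.15 at the 3 numbers, with an SD of 0.15 over the numbers. It turned to 0.05 after quantile normalization and was -0.03 with cyclic loess. It was -0.04 without sibling array 3 and -0.09 without mutant array 2.

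Across the 62 genes, mean signal and fitted difference had a Spearman rho of -0.70 as deposited and -0.23 after quantile normalization. Over the 43 initiation genes it was -0.53 and -0.05. Genes are not independent replicates and all share the same 6 arrays, so these are descriptions. At numbers 1, 2 and 3 the rho over the 62 genes was -0.35, -0.64 and -0.47. It was strongest at number 2, where the 99th percentiles of the arrays lay furthest apart. Of the 62 genes, 33 lay in the brightest of 10 equal bands of tested probe sets, whose median difference was -0.10 as deposited and -0.01 after quantile normalization. The part of the signal distributions in the factors' differences was measured only through these scalings.

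**Figure D4:**
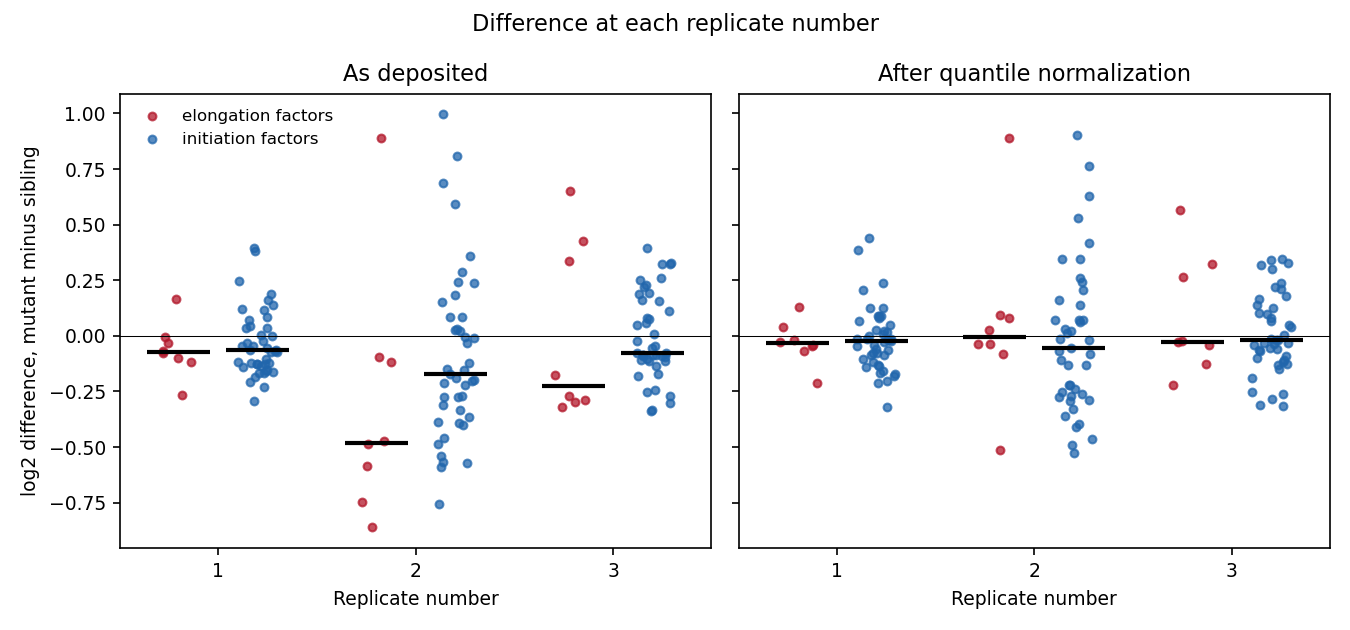
Log2 difference of the mutant minus the sibling array at replicate numbers 1, 2 and 3 for each tested elongation factor gene (red, 8 genes) and initiation factor gene (blue, 43 genes), as deposited on the left and after quantile normalization on the right, with black lines at the medians. As deposited the elongation median is -0.07, -0.48 and -0.22 at numbers 1, 2 and 3; after quantile normalization no median of either group at any number is further from 0 than -0.06.

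eIF3, the large scaffold on the small ribosomal subunit, was read by 14 genes, 11 of which had differences below 0 as deposited. The median was -0.14, against a running median of -0.12 at their signals, and -0.05 after quantile normalization, with 10 below 0, or 9 with cyclic loess. The 8 eIF3 genes with a mean signal over 5000 all lay below 0, with a median of -0.23 against a running median of -0.15; after quantile normalization or cyclic loess 7 of the 8 did, with medians of -0.05 in both. The 6 dimmer eIF3 genes were split, 3 below and 3 above 0.

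Of the eIF3 subunits, eif3f had the lowest fitted value. Its signals were 6724, 5981 and 9188 in mutants, against 7387, 10103 and 10944 in siblings, and mutant array 3 alone reached above a sibling array. It differed by -0.38 ± 0.20 as deposited and by -0.22 ± 0.13 after quantile normalization, where its running median was near 0. eif3m, another subunit, had 6908, 7230 and 9666 in mutants, against 8101, 9322 and 12213 in siblings, and differed by -0.31 ± 0.19, or -0.18 ± 0.13 after quantile normalization. Both reached an unadjusted p of 0.040 with the replicate number as a block, and neither passed after adjustment (limma, adjusted p = 0.659). eif3i and eif3d, at 7106, 6292 and 8019 in mutants against 7642, 9165 and 9040 in siblings, and at 9350, 8556 and 10413 in mutants against 9762, 12741 and 11270 in siblings, differed by -0.27 ± 0.14 and -0.25 ± 0.15. In both genes the genotypes overlapped by mutant array 3 alone. After quantile normalization eif3d was at -0.05 and eif3i at -0.13. eif3c was the factor gene whose mutant arrays all lay below the sibling arrays, at 3722, 3726 and 3504 in mutants against 3916, 3806 and 3744 in siblings. That separation was of a small difference, -0.07 ± 0.12.

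eIF2B, the exchange factor that returns eIF2 to its GTP form and on which stress signalling acts, had all 5 subunit genes below 0 as deposited. The differences were -0.17 for eif2b1, -0.26 for eif2b2, -0.09 for eif2b3, -0.08 for eif2b4 and -0.16 for eif2b5, with standard errors of 0.14 for eif2b4 up to 0.19 for eif2b2. Their running medians lay between -0.03 and 0.05, and all 5 genes were below theirs. At number 1, eif2b3 and eif2b4 differed by 0.002 and 0.08 as deposited. Lower at all 3 numbers were 3 of the 5, against 14.7% of all tested probe sets. Quantile normalization lowered the fitted difference of each of the 5, to a median of -0.19, so none could turn sign with it. The median distance of the 5 from their running medians was -0.17 both as deposited and after quantile normalization. With cyclic loess all 5 lay below 0, at a median of -0.18, also lower than the -0.16 as deposited. They had to stay below 0 with a common median, which lowers every fitted difference alike. eif2b2 had the lowest value, with signals of 1228, 1241 and 1643 in mutants against 1396, 1503 and 2071 in siblings, and it differed by -0.27 after quantile normalization. It was lower at each number, and mutant array 3 lay above sibling arrays 1 and 2. Without sibling array 3 eif2b2 was at -0.09 and eif2b3 at 0.01, and eif2b4 was at 0.02 with both arrays of number 2 left out; without the block none of the 5 reached an unadjusted p under 0.05.

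eIF2 itself, which brings the initiator tRNA, was read by 3 subunit genes with no common direction. eif2s2, the brightest of them, had 6041, 6335 and 7799 in mutants, against 6976, 6246 and 8232 in siblings, and differed by -0.09 ± 0.16, or 0.04 after quantile normalization. eif2s1a and eif2s1b, both for the alpha subunit, differed by 0.05 and -0.05. The genotypes overlapped in all 3. eif2a and eif2d, whose products can bring initiator tRNA by other routes, differed by -0.07 ± 0.22 and -0.01 ± 0.16. eif1axa and eif1axb, paralogs for eIF1A, which acts in scanning for the start codon, differed by 0.22 ± 0.20 and -0.17 ± 0.16; eif1axb had 4237, 3442 and 4821 in mutants, against 4671, 5107 and 4218 in siblings.

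The highest fitted value among the initiation factors was in the cap complex, in a gene of eIF4G. eIF4G is the scaffold that joins the cap-binding protein, the helicase and eIF3. eif4g3b on chromosome 23 had 276.8, 387.6 and 249.7 in mutants, against 250.1, 186.3 and 185.9 in siblings. The genotypes met at a single pair of arrays, mutant array 3 and sibling array 1, which differed by less than a unit of signal, and the gap was widest at number 2. It differed by 0.51 ± 0.22 as deposited (unadjusted p = 0.042 in limma, adjusted p = 0.942) and by 0.44 ± 0.20 after quantile normalization. Leaving out each array in turn gave 0.33, without mutant array 2, to 0.64. All 4 eIF4G genes lay above 0 under all 4 scalings: eif4g3a differed by 0.21 ± 0.19, eif4g2a by 0.13 ± 0.15 and eif4g2b by 0.13 ± 0.16. Higher at all 3 numbers were 2 of the 4, against 16.2% of all tested probe sets as deposited. eif4g2a was lower in the mutant at number 3, by -0.09, and eif4g2b at number 2, by -0.19. Leaving out each array in turn brought eif4g2a down to 0.06 and eif4g2b to 0.003, in both cases without mutant array 1. eif4g2a and eif4g2b encode the eIF4G relative that does not bind the cap-binding protein. The median of the 4 was 0.17 as deposited and after quantile normalization, against running medians near 0. Of the 2 dimmer probe sets of eif4g3a, 1 differed by 0.01, or -0.04 after quantile normalization, with 2 mutant arrays and 1 sibling array at background. The other lay below 0 both as deposited and after quantile normalization, and was at background on 2 mutant arrays and all 3 sibling arrays.

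The helicase genes of eIF4A were split. eif4a2 had 888.2, 1231 and 824.8 in mutants, against 861.9, 695.5 and 690.9 in siblings. Its value was highest on mutant array 2, and the genotypes overlapped through sibling array 1. It differed by 0.37 ± 0.18, or 0.34 after quantile normalization, and by 0.20 without mutant array 2. eif4a1a, the brightest of them, had 9585, 8384 and 8925 in mutants, against 9346, 9336 and 7442 in siblings. It differed by 0.05 ± 0.14, where its running median was -0.15, and a dimmer probe set of it by -0.21 ± 0.29. After quantile normalization its brightest probe set was at 0.20 ± 0.12, higher at all 3 numbers, and the dimmer one at -0.22 ± 0.29. eif4a1b differed by -0.17 ± 0.14, and eif4a3, whose product is also part of the exon junction complex, by -0.15 ± 0.13. Of the genes for cofactors of the helicase, eif4bb, at 5576, 4990 and 6318 in mutants against 5792, 6987 and 6833 in siblings, differed by -0.22 ± 0.14, and eif4h by 0.10 ± 0.13. After quantile normalization eif4bb was at -0.09, while eif4h was at 0.13.

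Tested genes of the cap-binding eIF4E family had differences of either sign, each smaller than its standard error. eif4e1c, the brightest, had 2280, 2029 and 2482 in mutants, against 2331, 2449 and 2227 in siblings, and differed by -0.05 ± 0.13. eif4e3 differed by -0.13 ± 0.17, or -0.18 ± 0.18 after quantile normalization, and a dimmer probe set of it by 0.08 ± 0.21. eif4ea differed by 0.09 ± 0.15 and eif4e2rs1 by 0.02 ± 0.14. eif4e1b, a paralog, was at background on all 6 arrays and was not tested.

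Of the factors that act at subunit joining, eif5, for the protein that makes eIF2 hydrolyse its GTP, had 3542, 2622 and 3874 in mutants, against 3542, 3950 and 3854 in siblings. The genotypes were apart at number 2 alone, and the fitted difference was -0.19 ± 0.16. eif5b, for the GTPase that joins the subunits, differed by 0.05 ± 0.16 at its brightest probe set and by 0.22 ± 0.13 at the other, where all 3 mutant arrays lay above the sibling arrays. eif6, for the protein that keeps the large subunit from joining too early, differed by -0.09 ± 0.16.

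eIF5A, which carries the modified residue hypusine and helps the ribosome through difficult stretches and at stop codons, had 2 bright genes. eif5a had 10441, 9930 and 10933 in mutants, against 10919, 13546 and 11414 in siblings, and differed by -0.19 ± 0.14. Sibling array 2 stood above the rest, and mutant array 3 lay just above sibling array 1. After quantile normalization the difference was -0.01. eif5a2 had 10014, 9499 and 10691 in mutants, against 10206, 11071 and 10478 in siblings, and differed by -0.07 ± 0.12 as deposited and by 0.09 after quantile normalization. At their brightness the running median was -0.21 and -0.18 as deposited.

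The release factor eRF1, which reads stop codons, was read by 4 probe sets of etf1b that differed in sign. The brightest had 4756, 4140 and 4927 in mutants, against 4178, 5497 and 5308 in siblings, and differed by -0.11 ± 0.15, with a mutant array above its sibling array at number 1 and below it at numbers 2 and 3. The others differed by 0.13 ± 0.15, 0.58 ± 0.40 and 0.04 ± 0.39. Of 11 factor genes with more than 1 tested probe set, 5 had probe sets of opposite sign (eif1axb, eif4a1a, eif4e3, eif4g3a and etf1b, in eif4g3a through the probe set at background in siblings), and only in etf1b did they span more than 0.5, at 0.69.

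Among the regulators, eif4enif1 was the factor gene of smallest p and the only one whose mutant arrays all lay above the sibling arrays at its brightest probe set. It encodes an eIF4E-binding protein that carries eIF4E between compartments and holds mRNAs untranslated. Its signals were 359.9, 369.4 and 289.3 in mutants, against 265.8, 261.4 and 191.8 in siblings. Mutants were higher at each number, by 0.42, 0.47 and 0.55. The fitted difference was 0.48 ± 0.20, with a 95% interval of 0.04 to 0.92, and it was 0.41 ± 0.18 after quantile normalization. It did not pass after adjustment (unadjusted p = 0.034 in limma, adjusted p = 0.942; 0.015 and 0.648 with the block). Leaving out each array in turn gave 0.34 to 0.59.

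eef2k, for the kinase that phosphorylates eEF2 and so slows elongation, had the highest fitted difference of all 62 genes and one of the widest intervals. Its signals were 282.4, 752.5 and 332.7 in mutants, against 297.0, 343.1 and 141.7 in siblings. Mutant array 2 stood far above the other 5 arrays and sibling array 3 below them, and at number 1 the arrays were close. The differences by number were -0.07, 1.10 and 1.14, and the fitted difference was 0.72 ± 0.39, with a 95% interval of -0.16 to 1.61, or 0.65 ± 0.38 after quantile normalization. With the block the unadjusted p was 0.018 and the adjusted p 0.655 (limma). The fitted difference was 0.31 without mutant array 2 and 0.36 without sibling array 3.

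The remaining regulators differed by less. The eIF4E-binding proteins that block cap-dependent initiation when they are not phosphorylated had differences of 0.07 ± 0.15 for eif4ebp1, -0.24 ± 0.15 for eif4ebp2 and -0.09 ± 0.15 for eif4ebp3l. eif4ebp2 had 4299, 4667 and 5012 in mutants, against 4702, 6598 and 5325 in siblings, lower at each number and overlapping through mutant array 3. eif2ak3, for the endoplasmic reticulum kinase that phosphorylates eIF2, had 257.7, 311.0 and 222.5 in mutants, against 229.2, 197.3 and 274.9 in siblings, and differed by 0.16 ± 0.20. eef1akmt2, for a methyltransferase of eEF1A, had 63.1, 89.4 and 54.6 in mutants, against 60.9, 64.3 and 45.5 in siblings. It was at background on 1 mutant array and on all 3 sibling arrays, so no size is given for its difference. eef1e1, for a component of the multisynthetase complex rather than an elongation factor, differed by -0.01 ± 0.13.

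**Figure D5:**
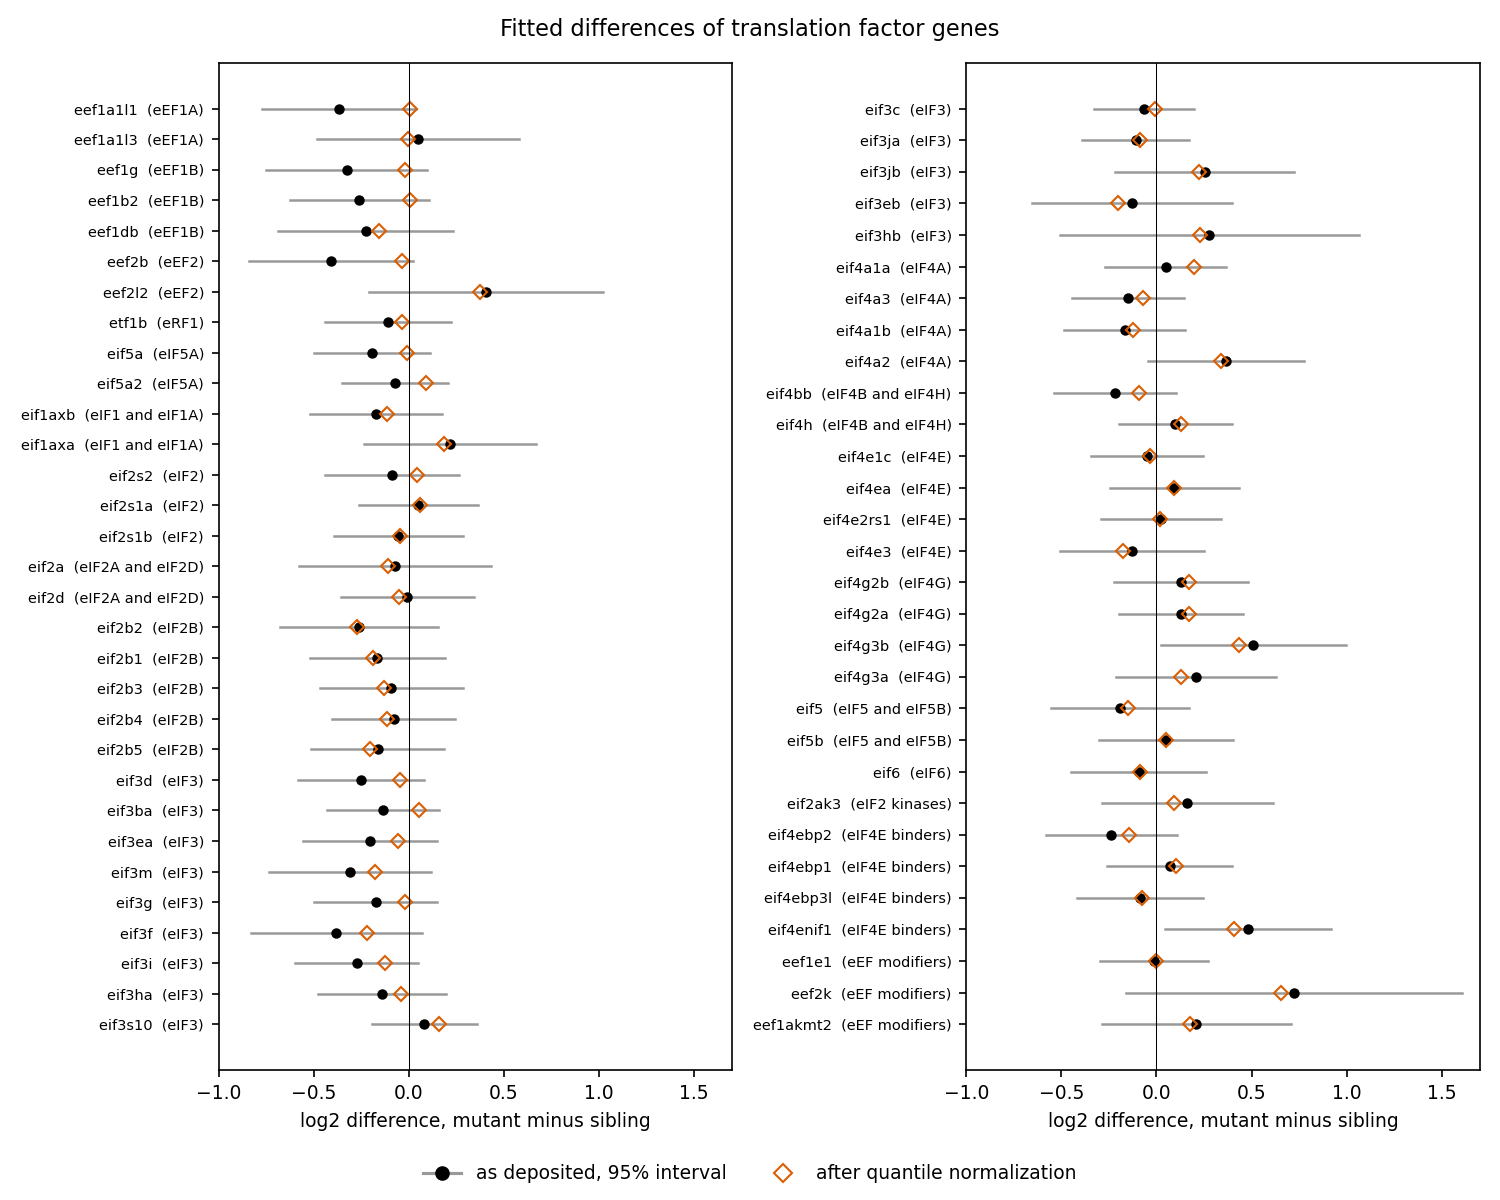
Fitted log2 difference, mutant minus sibling, of 61 tested factor genes as deposited (black, with 95% intervals) and after quantile normalization (open orange diamonds), grouped by complex; eef2a.1 is left out because its interval runs from -2.33 to 2.66, and eef1akmt2, at background in siblings, is drawn at its fitted value. The intervals are without the replicate block, and all but those of eif4enif1 and eif4g3b include 0; with the block those of eef2k (0.16 to 1.29), eif3f (-0.74 to -0.02) and eif3m (-0.60 to -0.02) also exclude it. After quantile normalization eef1a1l1, eef1b2, eef1g and eef2b move to near 0 and eef1db to -0.16. The eIF2B genes all move further below 0, and the eIF4G genes stay above 0.

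Other genes of the translation machinery, from lists of symbols, are given from the same test, and none of them passed. All 75 measured cytosolic ribosomal protein genes lay below 0 as deposited, with a median of -0.33, and 41 of 75 did after quantile normalization, with a median of -0.01. With cyclic loess 67 did. The one of smallest p was rpl31, at 13967, 11936 and 16545 in mutants, against 14788, 21985 and 23545 in siblings, a difference of -0.49 ± 0.20, or -0.21 after quantile normalization. As with eef1a1l1, eef1b2, eef1g and eef2b, mutant array 2 was the lowest array and mutant array 3 alone overlapped the siblings.

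Aminoacyl-tRNA synthetases, which charge the tRNAs, had 13 of 19 genes below 0 and a median of -0.04; yars1 had the smallest p, at 0.20 ± 0.14. Genes of termination, ribosome recycling and poly(A) binding had 13 of 20 below 0 and a median of -0.09. Among them pabpc1b, for a cytoplasmic poly(A)-binding protein, had 1161, 1043 and 1482 in mutants, against 1451, 1770 and 1697 in siblings. Mutant array 3 alone overlapped, at the level of sibling array 1. It differed by -0.42 ± 0.16 as deposited and by -0.44 after quantile normalization (unadjusted p = 0.028 in limma, adjusted p = 0.942), so quantile normalization did not bring it nearer to 0. Ribosome assembly and nucleolar genes had 19 of 26 below 0 and a median of -0.05, with utp3 of smallest p at 0.43 ± 0.25. These counts are as deposited, where 46.2% of all tested probe sets lay below 0. After quantile normalization the counts of the 3 lists were 12 of 19, 11 of 20 and 15 of 26, against 52.3% of all. With cyclic loess they were 10, 10 and 13, against 50.6% of all.

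Mitochondrial translation factors had 4 of 7 below 0 and a median of -0.06. After quantile normalization 4 of the 7 lay below 0, and with cyclic loess 3 did. Among them tsfm, for the mitochondrial exchange factor of EF-Tu, had 133.1, 240.0 and 149.1 in mutants, against 113.9, 87.5 and 110.4 in siblings, with sibling array 2 at background. All 3 mutant arrays lay above the sibling arrays, and it differed by 0.63 ± 0.24. The pathway of the mTOR kinase, which governs eIF4E-binding proteins and eEF2 kinase, had 10 of 16 tested genes below 0 and a median of -0.01. After quantile normalization, and also with cyclic loess, 11 of the 16 lay below 0. mtor itself had 109.5, 211.1 and 116.0 in mutants, against 119.3, 71.0 and 61.0 in siblings, and differed by 0.68 ± 0.30, with 2 sibling arrays at background.

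Genes of the integrated stress response, which are induced when eIF2 is phosphorylated, had 7 of 10 above 0 under all 4 scalings. Below 0 lay 3, against 46.2% of all tested probe sets as deposited and 52.3% after quantile normalization. That share was 60.7% with a common median and 50.6% with cyclic loess. The median of the list was 0.25 as deposited and 0.20 after quantile normalization, against 0.02 and -0.01 over all tested probe sets. Higher at all 3 numbers were 4 of the 10, against 16.2% of all as deposited, and 2 were lower, against 14.7%. The median by number was -0.08, 0.38 and 0.21. atf3, for a transcription factor of that response, had the smallest p, with 302.6, 855.3 and 267.8 in mutants against 279.0, 190.8 and 187.4 in siblings. Mutant array 2 stood far above all other arrays, and mutant array 3 alone overlapped the siblings, lying below sibling array 1. It differed by 0.89 ± 0.38 (unadjusted p = 0.045 in limma, adjusted p = 0.942), and by 0.38 without mutant array 2.

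Mutant array 2 held the lowest signal more often among the factor genes than among all tested probe sets. Of the 62 tested, 23 had their lowest signal on it, or 37.1%, against 22.8% of all tested probe sets, and 11 had their highest, or 17.7%, against 25.8%. Sibling array 2 held the highest signal of 19 factor genes, or 30.6%, against 18.5% of all. Mutant array 1 held the lowest of 13, or 21.0%, against 14.4% of all. Sibling array 3 held the highest of 16, or 25.8%, against 17.6% of all. These shares are not matched for brightness, and 33 of the 62 factors lay in the brightest of 10 equal bands of tested probe sets. At number 2 the median difference of that band was -0.19. eif4enif1, eif4g3b, eef2k and eif4a2, and outside the factors tsfm, mtor and atf3, had their highest signal on mutant array 2, a point noted after their values were seen. Without that array the fitted differences were 0.42 for eif4enif1, 0.39 for tsfm and 0.41 for mtor. It was also the array with the lowest 99th percentile of signal, and its part in these values was otherwise not tested.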

How the data were processed

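RNA from 6 pools of whole embryos was hybridised to Affymetrix zebrafish arrays. The authors deposited linear MAS5 signal intensities (per the submitters' processing notes) for every probe set; neither the version of that software nor any detection call is given in the sources used here. No genome build is given either, and symbols and chromosomes were updated through RefSeq genes of GRCz12tu, in which all 84 rows of the factors were found. Of 15617 rows, 115 controls were removed. The annotation gave 1 symbol to 10802 rows, several to 135 and none to 4680, and 2 rows that a factor shares with another gene were left out.

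Signals were taken as log2(signal + 16), which understates differences of dim genes, and the lowest 25% by mean (under a signal of 46.09) were left out, except hand2. Genotype was fitted over 11626 probe sets by the lmFit and eBayes functions of limma 3.58.1 (R 4.3.3), with a trend on intensity, 2-sided p-values and Benjamini-Hochberg adjustment. A gene was represented by its brightest probe set. An array was at background for a probe set at or below the brightest of its 17 Tag control probe sets. Running medians used 200 neighbours. The number of arrays limits the precision, and p-values measure the spread between these pools.

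The members, roles and lists were chosen with earlier results of these data known. Named are all genes of eEF1A, eEF1B, eEF2 and eRF1, per other class the brightest and the gene of smallest p, the 5 factors of smallest p in each direction, genes whose probe sets have opposite signs and span over 0.5, hand2, and per list the gene of smallest p; a few others complete their complex.

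The labels number arrays 1 to 3 in both genotypes without saying what a number marks. Deviations from the genotype means correlated between same-numbered arrays at 0.193, 0.119 and 0.482, each over 0.1, the level taken here for pairing. Differences, standard errors and intervals are nonetheless those of the fit without the number as a block, unless the block is named beside them. Of the other pairs, mutant array 2 correlated with sibling array 1 at 0.203. Alternatives were quantile normalization, a common median, cyclic loess, offsets of 1 and 64, other filters, the number as a block, array weights, no trend, every probe set of a gene, and arrays left out.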

Additional observations from a re-analysis of the deposited data

How the results depend on the processing

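No translation factor gene passed under any of the settings run, which covered scaling, offset, filter, block, trend, weights and arrays left out. Each replicate number holds 1 mutant and 1 sibling array, so a block on the number cannot change a fitted difference, only its standard error and p-value. The medians therefore stayed at -0.08 for all factors, -0.24 for elongation, -0.09 for initiation and -0.15 for their difference. With the block hand2 remained the 1 probe set past the threshold. The pairing changed no call.

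Scaling moved the medians most. After quantile normalization, with or without the replicate block, the median of all factors was -0.0122, that of elongation turned to 0.000447 and elongation minus initiation turned to 0.0485. Cyclic loess gave -0.0075 for all factors, and a common median -0.163 for all factors and -0.168 for initiation. With both arrays of number 2 left out initiation was at -0.0226. Leaving out each array in turn gave -0.137 to -0.0341 for all factors, -0.380 to -0.113 for elongation, -0.143 to -0.0414 for initiation and -0.237 to -0.0435 for their difference. The number of probe sets past the threshold ran from 0, without sibling array 1 or 2, to 20, without mutant array 3, and was 0 with both arrays of number 1, 2 or 3 left out; hand2 then had adjusted p-values of 0.396, 0.193 and 0.071 (limma). With only the genes above the Tag controls on all arrays, chosen after seeing the data, the medians were -0.09, -0.33 and -0.09. Windows of 100 and 400 neighbours gave running medians of -0.18 and -0.13 for elongation. Of the 62 factors, 30 kept their sign in all settings run and 32 turned in at least 1, of which 6 after quantile normalization (eef1a1l1, eef1a1l3, eef1b2, eif2s2, eif3ba and eif5a2). Genes near the Tag controls have the least signal over background, and their differences are the least precise.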
